A study of Mus musculus with 3 samples.

Results

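The cone opsins Opn1sw and Opn1mw were examined in wild-type mouse neural retina, taken at postnatal day 10. Both genes were taken by name: every probe set whose only gene symbol was Opn1sw or Opn1mw. This gave 2 probe sets for 2 genes, 1 each, out of 12422 probe sets and 8251 named genes on the array. A probe set is a group of short probes against 1 transcript, and its signal is given here in the deposited linear units.

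Total RNA was measured on 3 Affymetrix U74Av2 arrays, 1 per pool, and a pool combined retinas from 3 to 4 mice; all tissue was taken within the hour from 1 to 2 pm. No treatment is named, and the animals, of mixed 129/SvEv and C57BL/6 stock, were born in the same litters as Rp1-/- mice, whose samples were not analysed here. The 3 pools form a single group, so no comparison between conditions and no test was possible. They are numbered 1 to 3 in accession order, which only names them, and the titles of pools 2 and 3 contain the name Rp1 while the descriptions call all pools wild type. The labels do not say whether the pools came from separate litters, so the spread between them may hold technical as well as animal variation. The tissue label was checked against photoreceptor markers: Crx, Pdc and Sag were above background on all 3 arrays. Pool 3 was highest for most rod genes and in the lens share of the summed signal, as given below. The lens share was also high in pool 1, at 3.17% beside 5.40% in pool 3, and low in pool 2, at 0.58%. The opsin results that rest on pool 3 are also given without it.

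Opsins are the light-absorbing receptors of photoreceptors, and each one sets the range of wavelengths its cell responds to. Mouse cones use a short-wavelength opsin encoded by Opn1sw and a medium-wavelength opsin encoded by Opn1mw, and many mouse cones make both, with the short-wavelength opsin prevailing in the ventral retina and the medium-wavelength opsin in the dorsal retina. During development the short-wavelength opsin appears first and the medium-wavelength opsin later, under the control of thyroid hormone acting through its receptor Thrb, while Rorb, Rora and Crx act on the Opn1sw gene. Cones are a small minority of mouse photoreceptors, which are mostly rods.

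The 250 bases upstream of each gene start are shown because the regulators measured below include transcription factors that act on opsin genes. The sequences are RefSeq's for GRCm38.p6, and both genes were found in that table. Opn1sw lies on the minus strand of chromosome 6 and Opn1mw on the plus strand of chromosome X. Capitals mark every match, on either strand, to the searched motifs: TAATCC, the homeodomain motif bound by CRX-type factors; TAATC, its core, which every match to the former contains; the half-site AGGTCA of nuclear receptors such as the thyroid hormone and ROR receptors; and TATAAA, the TATA box.
Opn1sw, chr6:29380514-29380763, minus strand: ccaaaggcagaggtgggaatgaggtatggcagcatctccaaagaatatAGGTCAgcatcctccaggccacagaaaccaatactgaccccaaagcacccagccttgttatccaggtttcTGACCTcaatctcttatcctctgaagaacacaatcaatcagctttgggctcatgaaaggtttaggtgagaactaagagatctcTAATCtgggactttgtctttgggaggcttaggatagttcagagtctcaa
Opn1mw, chrX:74127216-74127465, plus strand: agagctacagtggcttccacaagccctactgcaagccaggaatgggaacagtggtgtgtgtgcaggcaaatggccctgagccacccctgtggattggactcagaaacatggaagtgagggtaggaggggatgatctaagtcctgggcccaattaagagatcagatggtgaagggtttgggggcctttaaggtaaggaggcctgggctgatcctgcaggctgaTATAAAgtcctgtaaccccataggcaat

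The Opn1sw window held 2 nuclear receptor half-sites, one on the gene's strand from 202 to 197 bases before the start and the other on the opposite strand from 132 to 127 bases before it. It also held 1 TAATC core from 49 to 45 bases before the start and no TATAAA. The Opn1mw window held TATAAA from 28 to 23 bases before the start and no match to the other 3 motifs. Neither window held TAATCC. Of 32851 upstream windows of the same length, 14.02% held AGGTCA, 19.8% TAATC, 6.25% TAATCC and 12.4% TATAAA, counting both strands. A match is a run of letters, not a shown binding site, and these windows leave out more distant elements.

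As a background limit, each array's 90th percentile was taken over 97 probe sets for genes that tissues other than retina express, such as liver, muscle and testis. It was 355.9, 373.2 and 293.4 in pools 1, 2 and 3. A signal under the limit is called not above background, which does not show that the transcript was missing.

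The Opn1sw signal was above background in every pool and close between pools. Pools 1, 2 and 3 gave 1475.3, 1657.0 and 1538.9, a mean of 1557 ± 92.2 (SD, n = 3). The pools differed by at most 1.12-fold, or 0.17 on the log2 scale, with pool 2 highest and pool 1 lowest. Its SD of log2 signal was 0.085. Of 511 other probe sets whose mean log2 signal lay within 0.25 of that of Opn1sw, 10.4% had a smaller SD, and their median SD was 0.24.

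The Opn1mw signal differed far more between the same pools. Pools 1, 2 and 3 gave 211.3, 346.1 and 646.7, a mean of 401.4 ± 222.9 (SD, n = 3). Pool 3 was the only pool above background. With the limit in place of the signals under it, the signal of pool 3 was at least 1.82-fold higher than that of pool 1 and at least 1.73-fold higher than that of pool 2, and no fold is given between pools 1 and 2. The signals as they stand, those not above background included, had a range of 1.61 and an SD of 0.81 on the log2 scale. Of 1117 other probe sets of like signal, 94.7% had a smaller SD, and their median SD was 0.34. A log2 range over 1, a doubling, was reached by 12.3% of the 5120 probe sets above background on average and by 20.2% of the 1117 of like signal. Without pool 3 the range fell to 0.71, and the mean of the other two pools was 278.7.

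**Figure D1:**
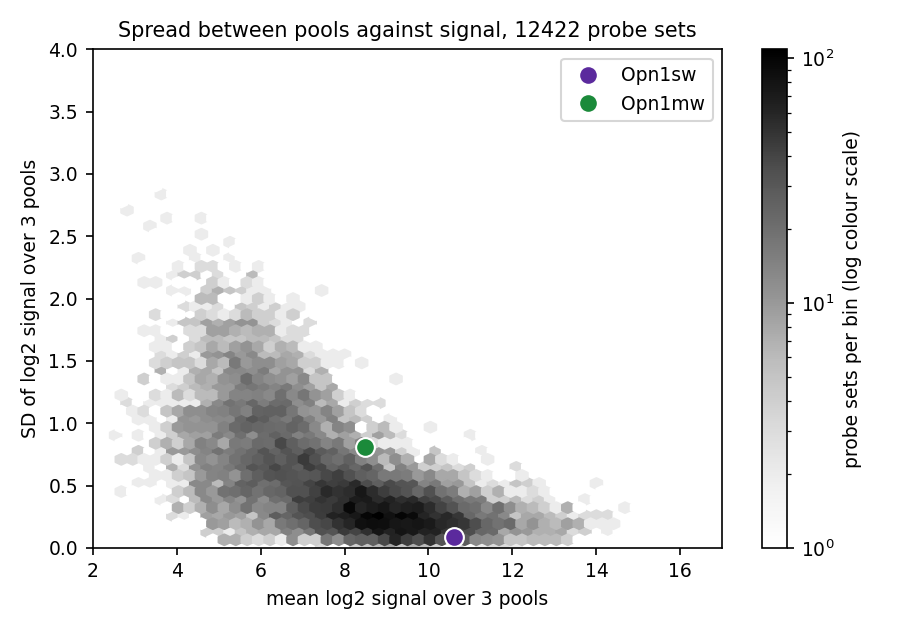
The SD of log2 signal over the 3 pools is plotted against the mean log2 signal for 12422 probe sets, with darker bins holding more probe sets. Opn1sw sits at an SD of 0.085, where 10.4% of probe sets of like signal had a smaller SD. Opn1mw sits at 0.81, where 94.7% had a smaller SD and some of the rest lie far above it.

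How much of the Opn1mw signal stood above background also differed by pool. Opn1sw was above it on all 3 arrays, as were 34.2% of all probe sets, at 4.14, 4.44 and 5.25 times the limit. Opn1mw was above it on 1 of 3 arrays, at 0.59, 0.93 and 2.20 times the limit in pools 1, 2 and 3, and 49.1% of all probe sets were above it on at least 1 array. In pool 1, 81 of the 97 background probe sets had a lower signal than Opn1mw, in pool 2, 85, and in pool 3, 93. For Opn1sw the number was 96 in every pool, the exception being Pvalb, which some retinal neurons also make.

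The pool 2 signal of Opn1mw lay close under the limit, so its side of the limit depends on where the limit is put. With the 85th percentile, an alternative chosen after seeing the data, Opn1mw was above background on 2 arrays, and with the 75th percentile on 3.

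**Figure D2:**
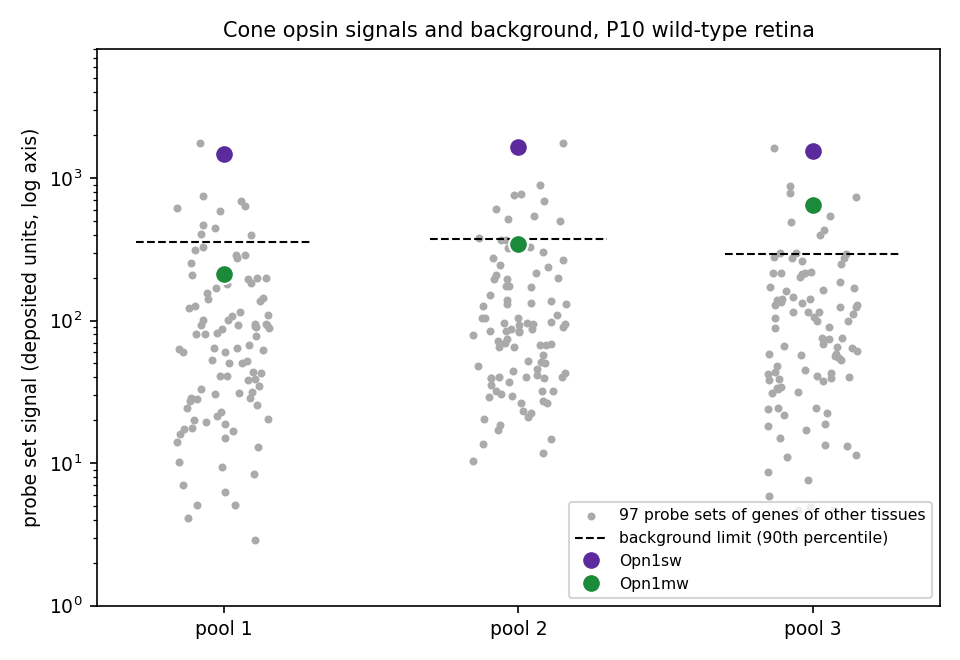
The signals of Opn1sw and Opn1mw in each pool (log axis, deposited units) are drawn over the 97 probe sets of genes of other tissues, with the background limit as a dashed line. Opn1sw lies well over the limit in every pool, and Opn1mw lies over it in pool 3 only, at 646.7 against a limit of 293.4.

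The opsins differed unequally between pools. On the log2 scale, Opn1mw minus Opn1sw was -1.25 in pool 3. In pools 1 and 2, where Opn1mw was not above background, the signals as they stand gave -2.80 and -2.26, and the limit put the difference at no more than -2.05 and -2.15. With this limit, the ratio was at least 1.74-fold higher in pool 3 than in pool 1 and at least 1.87-fold higher than in pool 2. A higher limit would make both bounds smaller. A ratio within an array does not depend on the factor by which an array was scaled. The size of the ratio in any one pool carries no meaning as a ratio of transcripts, because different probe sets are not on a common scale. Without pool 3 the signals as they stand left a range of 0.54 on the log2 scale, with Opn1mw not above background in either remaining pool. In whole retina, fewer cells making a transcript and less transcript per cell cannot be told apart.

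The other cone phototransduction genes were measured in part: 7 of 15 listed genes had a named probe set. Of the 7, 4 were above background on all arrays, against 34.2% of all probe sets. That share is not a like measure, because list genes are counted by their brightest probe set. Counted that way, 3435 of the 8251 named genes, leaving out Opn1sw, were above background on all arrays. The transducin subunits of cones relay the signal from the opsin. Gnat2, the alpha subunit, read 855.1, 1289.2 and 1078.9 in pools 1, 2 and 3, with pool 1 lowest. Gnb3, the beta subunit, read 5091.7, 5047.3 and 6702.9, with pool 3 highest. Gngt2, the gamma subunit, read 675.0, 1133.6 and 468.7, so it was lowest in pool 3, the pool in which Opn1mw was highest. Its log2 range of 1.27 was the widest among the 4 above background.

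The remaining genes of the cone list act on cyclic GMP or on signal shutoff, and rods use several of them too. Guca1a, an activator of the photoreceptor guanylate cyclase, read 971.3, 978.0 and 1594.0. Gucy2e, a guanylate cyclase of photoreceptors, read 251.4, 382.6 and 372.5 and was above background in pools 2 and 3. Cnga3, the alpha subunit of the cone channel, was not above background in any pool, at 47, 67.2 and 37.4. Nor was Rgs9, which speeds transducin shutoff, at 118.7, 175.7 and 66.5. Of the 4 genes above background on all arrays, 2 were highest in pool 2, as Opn1sw was, and 2 in pool 3, as Opn1mw was. Of the 4252 probe sets above background on all arrays, 34.1% were highest in pool 1, 35.1% in pool 2 and 30.7% in pool 3. After centring each gene on its own mean over the pools, the list's median log2 value was -0.13, 0.28 and 0.026 in pools 1, 2 and 3. This median covers all 7 genes, including Cnga3 and Rgs9, which were highest in pool 2 and lowest in pool 3 but above background nowhere. The 4742 genes above background on at least 1 array, a set without such dim genes, gave 0.017, -0.010 and 0.0029.

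Of the other opsin family genes, 2 of 6 listed had a named probe set. Rrh, peropsin, read 413.1, 314.2 and 374.3 and was above background in pools 1 and 3. Rgr, an opsin of pigment epithelium and Müller glia, read 18, 215.7 and 157.9 and was above background in none.

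Of 28 listed opsin regulators, 21 were named on the array. Of the 21, 13 were above background on all arrays, against 34.2% of all probe sets and 3435 of 8251 named genes besides Opn1sw, and 5 on no array. With the 95th percentile limit the 13 became 7, but the share over all genes was not computed with that limit. Factors of photoreceptor genes and fate had no common order over the pools. Crx, the homeodomain factor of rods and cones, read 8222.9, 7619.8 and 6475.1, lowest in pool 3. Neurod1, a bHLH factor of photoreceptors, read 3245.1, 5805.7 and 3685.1, highest in pool 2. Nrl, the factor that commits cells to the rod fate, read 518.5, 672.0 and 493.6. Prdm1, which favours photoreceptor over bipolar fate, read 903.7, 760.4 and 470.7 and was lowest in pool 3.

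Nuclear receptors and the proteins that work with them varied without a common order. Rora, an ROR receptor, read 534.6, 644.8 and 757.3, lowest in pool 1 and highest in pool 3. The Opn1mw signals as they stand had that order too, but Rora had a log2 range of 0.50. A second Rora probe set, at 23.1, 64.2 and 16.2, was not above background. Rxra, a partner of the thyroid hormone receptor, read 760.0, 1106.1 and 867.7, and Rxrb, another partner, 2418.6, 983.1 and 1178.5, a 2.46-fold range. Thra, the second thyroid hormone receptor gene, read 5773.0, 3312.6 and 5440.9, and its other probe set, at 294.0, 220.0 and 262.6, was not above background.

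Other regulators of the list differed in order between pools. Nr1d1, a clock receptor, read 581.7, 463.3 and 552.2. Pias3, a SUMO ligase of photoreceptors, read 2797.0, 2627.8 and 2132.9, lowest in pool 3 on each of its 3 probe sets. Ncoa1, a receptor coactivator, read 484.1, 590.4 and 441.0. The signalling genes Bmp4 and Jak1 read 655.4, 394.9 and 542.3, and 1050.2, 739.5 and 737.2. A second Bmp4 probe set, at 50.9, 130.8 and 80, was not above background and was highest in pool 2. Nr2f1, a COUP-TF receptor, was above background in pool 2 only, at 260.6, 528.5 and 242.4. Of the 13 genes above background on all arrays, 8 were highest in pool 1, 4 in pool 2 and 1 in pool 3, beside the shares over all such probe sets given for the cone list.

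The genes most directly tied to thyroid hormone control of Opn1mw gave dim signals, and they are named here after their values were seen. Thrb read 63.1, 103.6 and 129.9, and its partner Rxrg 104.2, 51.3 and 48.4, neither above background on any array. Dio2, the enzyme that makes active thyroid hormone, read 158.8, 146.4 and 498.3 and was above background in pool 3 only, the pool in which Opn1mw was also above it. With the 95th percentile limit, 499.2 in pool 3, Dio2 was above background in no pool, while Opn1mw still was in pool 3. The order of Dio2 and Opn1mw differed in pools 1 and 2, where both were under the limit.

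**Figure D3:**
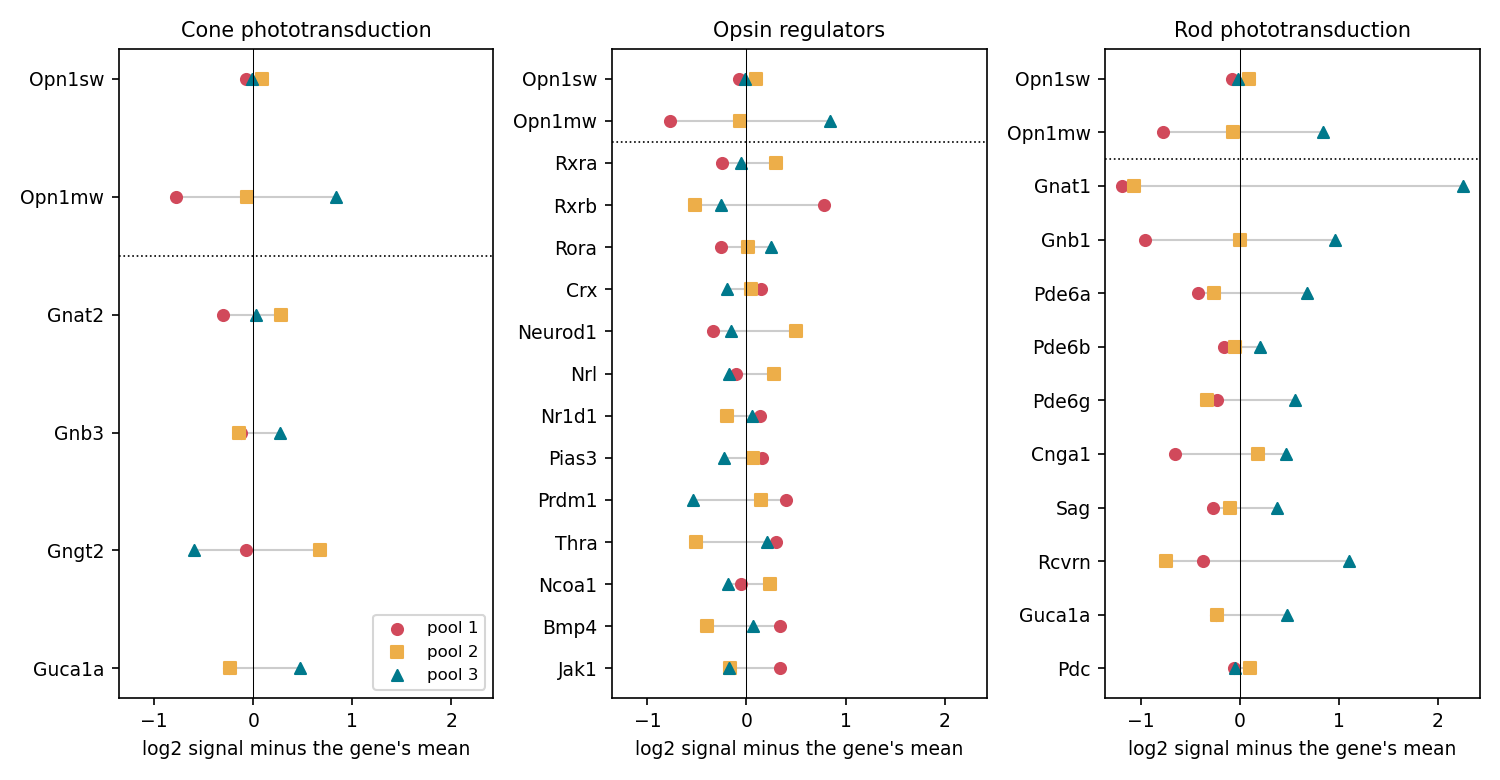
Centred log2 signals (each gene's 3-pool mean set to 0) are shown for both opsins (over the dotted line) and, under it, for the genes above background on all arrays in 3 lists, with a marker per pool. Opn1mw spans -0.78 in pool 1 to 0.84 in pool 3, most rod genes are likewise highest in pool 3, and the cone and regulator genes show no common order.

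Rod phototransduction genes were mostly highest in pool 3, the pool in which Opn1mw was highest. All 10 measured rod genes, of 16 listed, were above background on all arrays, against 34.2% of all probe sets and 3435 of 8251 named genes besides Opn1sw. Pool 3 was highest for 9 of the 10, against 30.7% of the probe sets above background on all arrays. The full order of the Opn1mw signals as they stand, with pool 1 lowest and pool 2 between, was held by 7 of the 10. Opn1mw was not above background in pools 1 and 2, so its order between those pools is not firm. Here and below, the order of Opn1mw means this order of the signals as they stand. Of the cone genes 1 of 7 had this order, Guca1a, which is in both lists, and the difference between the lists was not tested. For 2 of the 7 rod genes with this order it was not firm: Guca1a differed little between pools 1 and 2, and a second Pde6b probe set read 1211.3, 1156.6 and 1676.7. Among the 6095 probe sets above background on at least 1 array, 15.6% had this order. That share is not a like measure: it counts probe sets rather than genes and takes in some that were under the limit in a pool. Gnat1, rod transducin alpha, read 1014.7, 1101.3 and 10970.1. Gnb1, its beta subunit, read 7629.7, 14796.4 and 28821.2. Pde6a and Pde6b, subunits of the rod phosphodiesterase, read 557.3, 620.3 and 1189.5, and 9198.1, 9943.9 and 11793.3. The rod list's median centred log2 value was -0.32, -0.17 and 0.52 in pools 1, 2 and 3.

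Other measures of the arrays also differed between the pools. For the Actb control, the 3′ over 5′ ratio, a sign of RNA integrity, was 1.20, 1.44 and 1.69, in the order of Opn1mw, whereas that of Gapdh was 0.95, 0.88 and 0.93. Lens genes, from the tissue in front of the retina, took 3.17%, 0.58% and 5.40% of the summed signal: by their brightest probe set, all 12 measured lens genes were lowest in pool 2 and highest in pool 3. Other probe sets did not all follow: a second Crybb2 set, above background on all arrays, read 1202.5, 1332.7 and 929.8, second sets of Crygd and Cryab were lowest in pool 1, and a Cryge set not above background was highest in pool 1. Cryaa, a lens crystallin, read 30500.9, 4702.7 and 76094.1, Crygs 10983.6, 1623.5 and 56436.5, Crybb2 5915.2, 841.9 and 28968.0, and Cryab 947.6, 310.9 and 2265.0. Of 8 pigment epithelium genes, 5 were above background on no array and 1 on every array. Over all probe sets, 34.2% were above it on every array and 49.1% on at least 1. Counted as genes, 3435 of 8251 named genes besides Opn1sw were above it on every array, and 4742 on at least 1. The 5 pigment epithelium genes above it on no array included Ttr, Tyr and Tyrp1, and the 1 on every array was Rlbp1, which Müller glia also make. Dct, a melanin synthesis enzyme, read 318.7, 596.4 and 604.9, above background in pools 2 and 3. Pmel, another gene of this list, read 508, 348.2 and 777.1, above background in pools 1 and 3 and lowest in pool 2. Dct and Rlbp1 had the order of Opn1mw, and no other of the 8 did. Their part in the Opn1mw difference was not tested.

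Genes of the retinoid cycle, which supplies the chromophore that opsins bind, gave 9 named genes of 16 listed. Of the 9, 5 were above background on all arrays, against 34.2% of all probe sets and 3435 of 8251 named genes besides Opn1sw. Rlbp1, a retinoid carrier of Müller glia and pigment epithelium, read 2617.5, 3315.6 and 4195.9, in the order of Opn1mw. Of the 9 genes, 2 had this order, the other being Dhrs3, at 596.9, 745.8 and 963.3. Of the 5 above background on all arrays, 3 were highest in pool 3, against 30.7% of such probe sets. Rdh11, a retinol dehydrogenase, read 1286.0, 1887.3 and 1343.9. Rdh13 read 234.6, 391.1 and 331.0, and Rdh5 was not above background in any pool. Membrane and cilium genes that rods and cones share were all 5 above background on all arrays, beside the same shares. Rom1 (4559.1, 4123.2 and 6371.3), Prom1 (10151.3, 9813.1 and 11858.8) and Tulp1 (9866.1, 10275.0 and 14221.6) were highest in pool 3 and Prph2, at 2094.2, 2718.4 and 1482.8, lowest there. A second Prom1 probe set, at 3757.9, 4603.5 and 3298.1, was also lowest in pool 3.

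The genes nearest in pattern were found by the root mean square difference, over the 3 pools, between centred log2 values. With 3 pools many genes match by the small number of points alone, so these are descriptions. For Opn1sw, 3435 other genes above background on all arrays were compared, and the nearest were Ap3d1, a vesicle adaptor subunit, Gucd1, Sem1, a proteasome component, Slc44a1, a choline transporter, and Atg5, an autophagy gene, all within 0.0076. Within 0.1 lay 511 genes, or 14.9%. For Opn1mw, 4741 other genes above background on at least 1 array were compared, and 3 lay within 0.1. The Opn1mw pattern rests on signals that were not above background in pools 1 and 2, and a gene could enter through pool 3 alone, so in those pools the pattern has only a bound.

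By the signals as they stand, the gene nearest to Opn1mw was Hr, hairless, a nuclear receptor corepressor, at a difference of 0.030 and signals of 277.7, 432.3 and 831.9. It was above background in pools 2 and 3. Next came Lbp, a lipopolysaccharide binding protein (145.9, 218.1 and 390.6), Htr3a, a serotonin receptor subunit (173.3, 260.0 and 449.0), Scd1, a fatty acid desaturase (148.7, 231.2 and 382.1), and Hic1, a transcriptional repressor (195.9, 370.9 and 586.3). These 4 were above background in pool 3 only, although Hic1 in pool 2 lay just under the limit of 373.2. The difference between the opsins themselves was 0.64, with 3387 of 3435 genes nearer to Opn1sw than Opn1mw was, but 1781 of 4741 nearer to Opn1mw than Opn1sw was, fewer than those farther away.

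**Figure D4:**
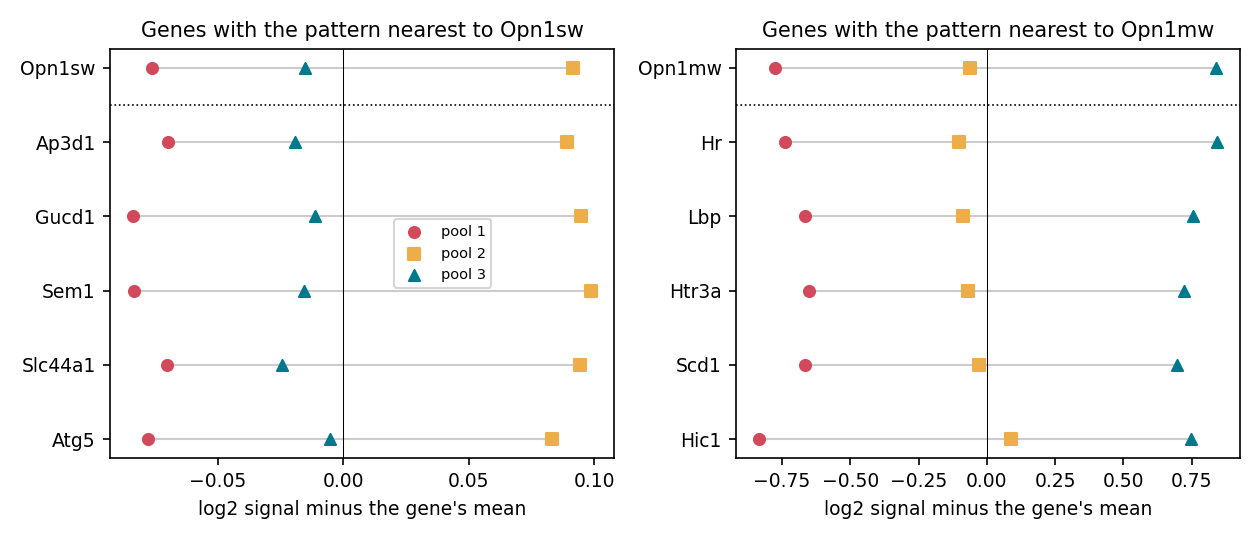
Centred log2 signals (each gene's 3-pool mean set to 0) are shown for each opsin and, under it, the 5 genes of most similar pattern, with a marker per pool and a separate horizontal scale for each opsin. The Opn1sw panel spans about 0.17 from its lowest to its highest pool and the Opn1mw panel 1.61, which includes signals not above background.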

How the data were processed

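The deposited series table holds 1 linear intensity per probe set for each of the 3 wild-type pools. The authors' software and the way this intensity was condensed and scaled are not given in the sources used here. With 2% of values trimmed at each end, array means were 500.2 or 500.3, so the deposited intensities were used unchanged. Control probe sets (66) were left out of counts. Names came from GEO's platform annotation, updated through the Entrez number from a RefSeq table (10817 of 10833 probe sets with a single symbol); 396 with several symbols were not used. A gene was represented by its brightest probe set. Values below 1 were set to 1 before log2. The background list held 97 probe sets of 79 genes. No detection calls accompany the values, and 3 arrays limit the precision. Python 3.11.15 with pandas 2.3.3 was used.

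The opsins and gene lists were chosen with earlier results of these data known. Named were all genes of the cone and other-opsin lists, regulators above background on all arrays or on average with a log2 range over 1, the first 4 measured of other lists, and the 5 nearest patterns. Pmel and Dhrs3 were added after their values were seen. The pattern search recovered 100 of 100 planted genes in simulated data. The planted genes were near-exact copies of the pattern, so this checked only the working of the search and not the real matches. Alternatives tried were quantile and median scaling, other limits, a pseudocount of 50, averaged probe sets, platform symbols and leaving out each pool.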

Additional observations from a re-analysis of the deposited data

How the results depend on the processing

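Across 95 recomputed values of the 9 main results, 87 moved by less than the spread between pools or, for counts, by no more than 1.5 times. Many of them could not move: the background limit does not enter opsin means and ranges, and each opsin has only 1 probe set to average. The rule was also wide, since an Opn1mw log2 range of 0.90 without pool 1, against 1.61, counted as unmoved. The 87 is therefore no measure of stability. With arrays scaled to a common median the log2 range of Opn1sw fell to 0.050. The number of arrays with Opn1mw above background went from 1 to 3 with the 75th percentile limit and to 2 with the 85th (chosen after seeing the data). It stayed at 1 without Pvalb in the background list, also chosen after seeing the data. With the 95th percentile limit, 7 regulators rather than 13 were above background on all arrays.

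Leaving out 1 pool at a time gave log2 ranges of 0.061 to 0.17 for Opn1sw, 0.71 to 1.61 for Opn1mw and 0.54 to 1.55 for their difference. The lowest Opn1sw value came without pool 2 and both others without pool 3. Opn1mw was then above background on 0 or 1 arrays, 0 without pool 3. The range over 2 pools cannot exceed that over 3. The causes were not tested. No paired analysis was possible because the series has 1 group. Signal over background limits the Opn1mw values in pools 1 and 2.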
